A study of Rattus norvegicus with 12 samples.

Results

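The 6 genes described here, Mfn1, Mfn2, Opa1, Dnm1l, Fis1 and Mff, encode the core machinery that joins and divides mitochondria. They were taken as all probe sets whose only gene symbol in the array's annotation is one of these names, which gave 9 probe sets of the 31042 on the array, for 6 of the 14217 genes with a name of their own there. A probe set combines the signals of several short probes. Mfn1, Mfn2 and Fis1 had 1 probe set each, and Opa1, Dnm1l and Mff had 2. Heart RNA was taken from the left ventricle of female Sprague-Dawley rats aged 16 months. EX rats could exercise voluntarily for life, PA rats moved about in a large box for 1 h on 2 days of the week, and SED rats were kept in a standard cage without either. There are 4 Affymetrix rat arrays a group. The design text speaks of 12 animals a group and 4 animals pooled for an array, enough for 3 arrays, so the animals behind each array were not settled. All p-values describe the spread between pooled arrays.

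Mitochondria in muscle constantly fuse and divide, which mixes their contents and allows damaged pieces to be removed. The outer membranes are joined by the mitofusins Mfn1 and Mfn2 and the inner membranes by the dynamin-related GTPase Opa1, which also shapes the cristae. Division is carried out by the GTPase Dnm1l, also called Drp1, which is recruited from the cytosol to the outer membrane by receptors such as Mff and Fis1. In adult heart muscle the organelles are packed between the myofibrils, and loss of the fusion proteins in mouse heart is known to cause cardiomyopathy.

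Arrays of the series were alike in level, with medians of 5.64 to 5.72 log2 units, but 2 properties differed between arrays in ways that touch the values below. The interquartile range of all values was 3.89 to 4.04 on EX arrays, 3.93 to 4.04 on PA arrays and 3.58 to 3.86 on SED arrays. SED 1 stood apart: its values correlated at 0.964 on average with those of other arrays, where the remaining arrays reached 0.987 to 0.989. The gap between the 3' and 5' control probe sets of Gapdh, a sign of RNA integrity, was 1.56 in SED 1, against 1.12 to 1.35 in EX, 0.96 to 1.22 in PA and 1.14 to 1.20 on the other SED arrays. The tissue label was checked against its markers, and 7 of the 8 heart muscle genes on the list were measured, with means of 12.14 to 13.15 log2 units. Some other lists held single high genes. The skeletal muscle list had a median of 4.82 but Myh1 at 12.74, and the blood cell list 6.49 but Hbb at 12.69. The atrial list had a median of 6.61, with Nppa at 10.35. These levels alone do not settle the label. In bulk tissue, fewer cells of a type and less RNA per cell cannot be told apart.

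Opa1 had the smallest p-values of the members against SED, on the dimmer of its 2 probe sets. That probe set had a mean of 6.66 log2 units, and the other, at 9.07, did not separate the groups. No member reached the threshold of the whole-array test: limma placed 0 of the 8 tested member probe sets past an adjusted p of 0.05 in EX against SED, in PA against SED and in EX against PA. Over the whole array 0% of 18626 tested probe sets passed in each of these comparisons. At an unadjusted p under 0.05 there were 2 of the 8 in EX against SED (15.6% of all tested probe sets), 1 of the 8 in PA against SED (15.2%) and 0 of the 8 in EX against PA (2.87%). The arrays of the compared groups did not overlap for 1 of the 8 in EX against SED (7.89% of all tested probe sets), 1 of the 8 in PA against SED (8.39%) and 0 of the 8 in EX against PA (2.78%). With 8 probe sets, these counts lie near the background. The mean was higher for 6 of the 8 in EX against SED, where 59.7% of all tested probe sets were higher, for 5 of the 8 in PA against SED (60.9%) and for 4 of the 8 in EX against PA (46.9%).

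The promoters of 3 members are printed because Opa1 and Dnm1l had the smallest p-values and Mfn1 is the partner of Opa1 in fusion. They are RefSeq sequences of rat build GRCr8, from 250 bases before to 50 after a listed transcription start, read 5' to 3' on the gene's strand. Opa1 lies on the minus strand at chr11:84689851-84690150, Mfn1 on the plus strand at chr2:117241508-117241807 and Dnm1l on the plus strand at chr11:98085147-98085446. The Mfn1 and Dnm1l windows lie inside the annotated genes, which begin at chr2:117240525 and chr11:98084049. Bases before those gene starts were not searched.
Opa1: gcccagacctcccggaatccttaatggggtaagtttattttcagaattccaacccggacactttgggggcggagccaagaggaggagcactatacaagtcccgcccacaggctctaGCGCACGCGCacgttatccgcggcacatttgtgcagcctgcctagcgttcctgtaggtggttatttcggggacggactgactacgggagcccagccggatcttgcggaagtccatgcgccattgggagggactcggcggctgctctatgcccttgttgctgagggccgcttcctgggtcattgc
Mfn1: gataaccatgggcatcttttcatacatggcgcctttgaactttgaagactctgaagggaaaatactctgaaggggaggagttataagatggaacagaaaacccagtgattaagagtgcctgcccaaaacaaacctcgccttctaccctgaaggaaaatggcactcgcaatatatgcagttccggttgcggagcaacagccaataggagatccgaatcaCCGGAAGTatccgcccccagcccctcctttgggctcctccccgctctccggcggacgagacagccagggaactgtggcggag
Dnm1l: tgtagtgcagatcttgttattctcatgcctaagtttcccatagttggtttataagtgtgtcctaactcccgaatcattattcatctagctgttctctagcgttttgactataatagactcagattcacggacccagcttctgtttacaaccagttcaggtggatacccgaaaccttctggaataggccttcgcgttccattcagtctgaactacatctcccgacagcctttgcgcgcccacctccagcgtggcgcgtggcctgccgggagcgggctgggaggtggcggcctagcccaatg
Capitals mark the motif of the respiratory-gene factor NRF1, CCGGAAGT, bound by GABPA, and AAGGTCA, bound by estrogen-related receptors, searched on both strands. Of 33469 promoters of this length, 4.25% hold the first, 3.81% the second and 4.61% the third. These 3 motifs were kept from 14 that were screened on the members' promoters, so they were chosen with the sequences in view. Of the 14, 8 matched no member promoter. The most frequent were CCAAT, in 5 of the 6 member promoters and 37.5% of all, and GGGCGG, in 5 of the 6 and 33.1% of all. The Opa1 promoter holds GCGCACGCGC, an NRF1 match with its first base at -134 from the start. The Mfn1 promoter holds CCGGAAGT with its first base at -32, and so does 1 of the 2 listed Fis1 promoters, at 1. None of these 3 motifs was found in the Dnm1l and Mff windows, and Mfn2 is named only. A match describes letters and shows no binding.

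On the Opa1 probe set 1384608_at, the log2 values were 6.90, 6.92, 6.67 and 6.67 on EX arrays, 7.02, 6.71, 6.81 and 7.01 on PA arrays and 5.99, 6.37, 6.52 and 6.34 on SED arrays. All 8 arrays of active rats lay above all 4 SED arrays, while EX and PA overlapped. Over the tested probe sets, 1.59% had this pattern. The groups averaged 6.79 ± 0.14 in EX, 6.89 ± 0.15 in PA and 6.31 ± 0.22 in SED (SD, n = 4 each).

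The EX mean of this Opa1 probe set was 0.49 ± 0.13 (SE) above the SED mean on the log2 scale, or 1.4-fold, with a 95% interval of 0.21 to 0.76. The limma p was 0.00258 and 0.139 after adjustment over all probe sets. The PA mean was 0.58 ± 0.13 (SE) above the SED mean, or 1.5-fold (interval 0.30 to 0.86), with a limma p of 0.000669 and an adjusted p of 0.164. The 2 comparisons share the SED arrays. An exact two-sided permutation test gave p = 0.0286 for each, the smallest that 4 arrays against 4 allow. EX and PA differed by -0.10 (interval -0.38 to 0.18, limma, adjusted p = 1).

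Without SED 1, its lowest array, this Opa1 probe set differed by 0.38 in EX against SED (limma, adjusted p = 0.177) and by 0.48 in PA against SED (limma, adjusted p = 0.184). The same arrays that separate for Opa1 also separate by interquartile range, which was higher on every EX and PA array than on every SED array. Over the 12 arrays the probe set and this range had a Pearson r of 0.85 (permutation p = 0.0009, 0.0162 adjusted over 18 such relations) and a Spearman rho of 0.66 (permutation p = 0.0207, adjusted 0.124). Without the 2 arrays of most extreme range r was 0.53. The permutations moved values freely between the groups, so these p-values also reflect the split of the groups. A relation within the groups was not examined. After quantile normalization, which gives every array the same spread, the differences were 0.40 in EX against SED and 0.50 in PA against SED (limma, adjusted p of 0.184 and 0.203). Since the range itself splits the SED arrays from the others, range and group cannot be told apart here. The part of the range in the differences was not tested.

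The other Opa1 probe set, 1387225_at, did not separate the groups. Its log2 values were 9.14, 9.01, 9.29 and 9.21 in EX, 9.18, 8.93, 9.16 and 9.31 in PA and 8.20, 9.30, 8.95 and 9.15 in SED. SED 1 was far below every other array and the other SED arrays lay within the range of EX and PA. EX exceeded SED by 0.26 with an SE of 0.20 (interval -0.17 to 0.70, limma, adjusted p = 0.548). Without SED 1 that difference was 0.03. For PA against SED it was 0.25 ± 0.20 (interval -0.19 to 0.68, limma, adjusted p = 0.56), and 0.01 without SED 1. Without SED 2, the highest SED array, the differences were 0.40 in EX and 0.38 in PA. EX and PA differed by 0.02 (interval -0.42 to 0.45). This probe set too moved with the interquartile range of the arrays, with an r of 0.78 (permutation p = 0.0115, adjusted 0.0345) and a rho of 0.62 (permutation p = 0.0335, adjusted 0.139). That r was 0.53 without the 2 farthest arrays and 0.38 without SED 1, and the part of the range in the values was not tested.

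The 2 Opa1 probe sets were compared with each other. Their Pearson r over the 12 arrays was 0.62 (permutation p = 0.0399, adjusted over 3 genes 0.12) and their Spearman rho 0.27 (permutation p = 0.391), and r was 0.02 without SED 1 and 0.01 without SED 1 and PA 2. With the 2 probe sets averaged, Opa1 differed by 0.37 in EX against SED (limma, adjusted p = 0.262) and by 0.41 in PA against SED (limma, adjusted p = 0.264). Which transcripts each probe set reads is not given in the sources used here.

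**Figure D1:**
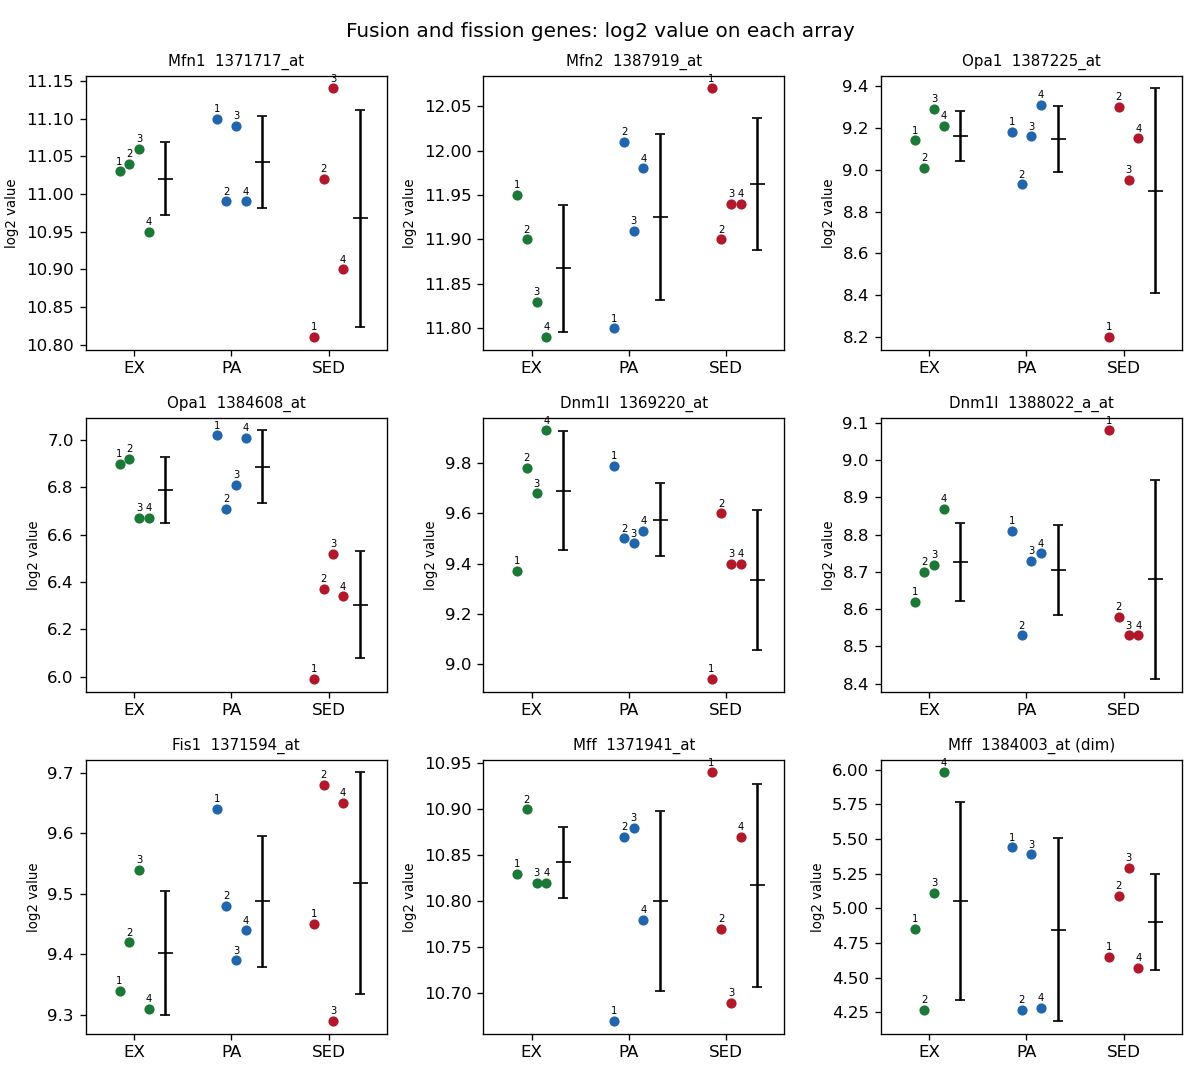
Log2 value (vertical axes, each with its own range) of the 9 probe sets on the 4 arrays of EX, PA and SED, numbered by replicate, with the mean and SD as black bars. On Opa1 1384608_at the SED arrays reach at most 6.52 and the EX and PA arrays start at 6.67, while on the other probe sets the groups overlap.

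The mitofusins, which join the outer membranes, did not pass the test in any comparison. Mfn1 read 11.03, 11.04, 11.06 and 10.95 in EX, 11.10, 10.99, 11.09 and 10.99 in PA and 10.81, 11.02, 11.14 and 10.90 in SED, all on the log2 scale. The lowest and the highest array were both SED arrays, and the groups overlapped. EX exceeded SED by 0.05 (interval -0.14 to 0.25, limma, adjusted p = 0.805) and PA exceeded SED by 0.08 (interval -0.12 to 0.27, limma, adjusted p = 0.697). EX and PA differed by -0.02 (interval -0.22 to 0.17). Without SED 1 the difference from SED was 0.00 in EX and 0.02 in PA, and without SED 3, the highest array, 0.11 in EX and 0.13 in PA.

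Mfn2, which also tethers mitochondria to the endoplasmic reticulum, read 11.95, 11.90, 11.83 and 11.79 in EX, 11.80, 12.01, 11.91 and 11.98 in PA and 12.07, 11.90, 11.94 and 11.94 in SED on the log2 scale. SED 1 was the highest array and EX 4 the lowest, with overlap between all groups. The EX mean differed from SED by -0.10 (interval -0.28 to 0.09, limma, adjusted p = 0.607), the PA mean by -0.04 (interval -0.22 to 0.14) and EX from PA by -0.06 (interval -0.24 to 0.12). Without SED 1 the difference from SED was -0.06 in EX (limma, adjusted p = 0.804) and 0.00 in PA (limma, adjusted p = 0.996).

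Dnm1l, the GTPase that constricts mitochondria, had its larger values in EX on 1 probe set. On 1369220_at the log2 values were 9.37, 9.78, 9.68 and 9.93 in EX, 9.79, 9.50, 9.48 and 9.53 in PA and 8.94, 9.60, 9.40 and 9.40 in SED. EX 2, EX 3 and EX 4 lay above every SED array, while EX 1 lay below all but SED 1. The means were 9.69 ± 0.24 in EX, 9.58 ± 0.14 in PA and 9.34 ± 0.28 in SED (SD, n = 4 each).

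The EX mean of Dnm1l 1369220_at was 0.36 ± 0.16 (SE) above the SED mean, or 1.28-fold (interval 0.02 to 0.69), with a limma p of 0.0417 and an adjusted p of 0.301. The exact permutation p was 0.114. Without SED 1 the difference was 0.22 (limma, adjusted p = 0.502). The PA mean was 0.24 ± 0.16 (SE) above the SED mean (interval -0.10 to 0.58, limma, adjusted p = 0.468), and 0.11 without SED 1. EX and PA differed by 0.12 (interval -0.22 to 0.45). The probe set moved with the interquartile range, with an r of 0.76 (permutation p = 0.00612, adjusted 0.0345) and a rho of 0.58 (permutation p = 0.0543, adjusted 0.163). That r was 0.35 without the 2 farthest arrays and 0.47 without SED 1, and its part in the difference was not tested.

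The other Dnm1l probe set, 1388022_a_at, read 8.62, 8.70, 8.72 and 8.87 in EX, 8.81, 8.53, 8.73 and 8.75 in PA and 9.08, 8.58, 8.53 and 8.53 in SED on the log2 scale. Here SED 1 was the highest of the 12 arrays, where it was the lowest on 1369220_at. EX differed from SED by 0.05 (interval -0.24 to 0.33, limma, adjusted p = 0.885) and PA from SED by 0.03 (interval -0.26 to 0.31). Without SED 1 the EX difference was 0.18 (limma, adjusted p = 0.416) and the PA difference 0.16. With the interquartile range its r was -0.18 over all arrays (permutation p = 0.572, adjusted 0.574) and its rho 0.38 (permutation p = 0.221, adjusted 0.38). That r was 0.78 without SED 1 and 0.77 without the 2 farthest arrays, and the part of the range in the differences without SED 1 was not tested.

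The relation of the 2 Dnm1l probe sets changed sign without SED 1. Over all arrays their Pearson r was -0.16 (permutation p = 0.616) and their Spearman rho 0.29 (permutation p = 0.36), adjusted over 3 genes 0.616 and 0.391. Over the 11 arrays without SED 1, r was 0.77 (permutation p = 0.0068, adjusted 0.0204) and rho 0.68. Without SED 1 and EX 4, r was 0.66. SED 1 also had the largest Gapdh 3' minus 5' difference, and the part of RNA integrity in its opposite values was not tested.

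**Figure D2:**
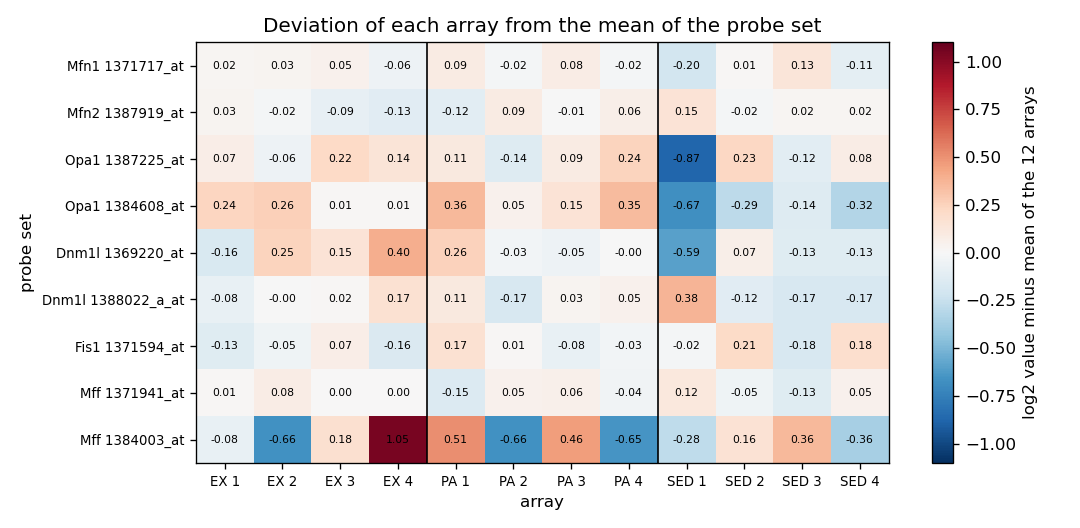
Log2 value of each array minus the mean of the 12 arrays (colour and printed number) for the 9 probe sets, with lines between EX, PA and SED. SED 1 is low on both Opa1 probe sets and on Dnm1l 1369220_at and high on Dnm1l 1388022_a_at, and the dim Mff probe set varies most.

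The outer-membrane receptors of fission did not separate the groups. Fis1 read 9.34, 9.42, 9.54 and 9.31 in EX, 9.64, 9.48, 9.39 and 9.44 in PA and 9.45, 9.68, 9.29 and 9.65 in SED on the log2 scale. SED 2 and SED 4 were its highest arrays and SED 3 its lowest. EX differed from SED by -0.12 (interval -0.35 to 0.12, limma, adjusted p = 0.631), PA from SED by -0.03 (interval -0.26 to 0.20) and EX from PA by -0.09 (interval -0.32 to 0.15). The EX difference from SED was -0.06 without SED 2, -0.07 without SED 4, -0.19 without SED 3 and -0.26 without SED 1 and SED 3. The rat genome also holds an annotated pseudogene of Fis1, and whether the probes tell them apart was not examined.

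Mff, the main receptor for Dnm1l in mammalian cells, read 10.83, 10.90, 10.82 and 10.82 in EX, 10.67, 10.87, 10.88 and 10.78 in PA and 10.94, 10.77, 10.69 and 10.87 in SED on the log2 scale for 1371941_at. The EX arrays lay close together, with an SD of 0.04, inside the range of the PA and SED arrays apart from EX 2, which exceeded every PA array. EX differed from SED by 0.03 (interval -0.16 to 0.21, limma, adjusted p = 0.911), PA from SED by -0.02 (interval -0.21 to 0.17) and EX from PA by 0.04 (interval -0.15 to 0.23). This probe set was high on arrays with a large Gapdh 3' minus 5' difference, with an r of 0.70 (permutation p = 0.0104, adjusted 0.0345) and a rho of 0.76 (permutation p = 0.00616, adjusted 0.0665). That r was 0.76 without the 2 farthest arrays and 0.62 without SED 1, and the part of RNA integrity was not tested.

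The second Mff probe set, 1384003_at, had a mean of 4.93 log2 units, just under the filter on dim probe sets at 4.94, and was not tested. Its log2 values were 4.85, 4.27, 5.11 and 5.98 in EX, 5.44, 4.27, 5.39 and 4.28 in PA and 4.65, 5.09, 5.29 and 4.57 in SED. The spread within EX and PA was wider than any distance between the group means, with SDs of 0.71 in EX, 0.66 in PA and 0.35 in SED. The differences were 0.15 for EX against SED (interval -0.65 to 0.95) and -0.06 for PA against SED (interval -0.86 to 0.75). Leaving out 1 array at a time gave 0.04 to 0.41 for EX and -0.17 to 0.14 for PA.

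**Figure D3:**
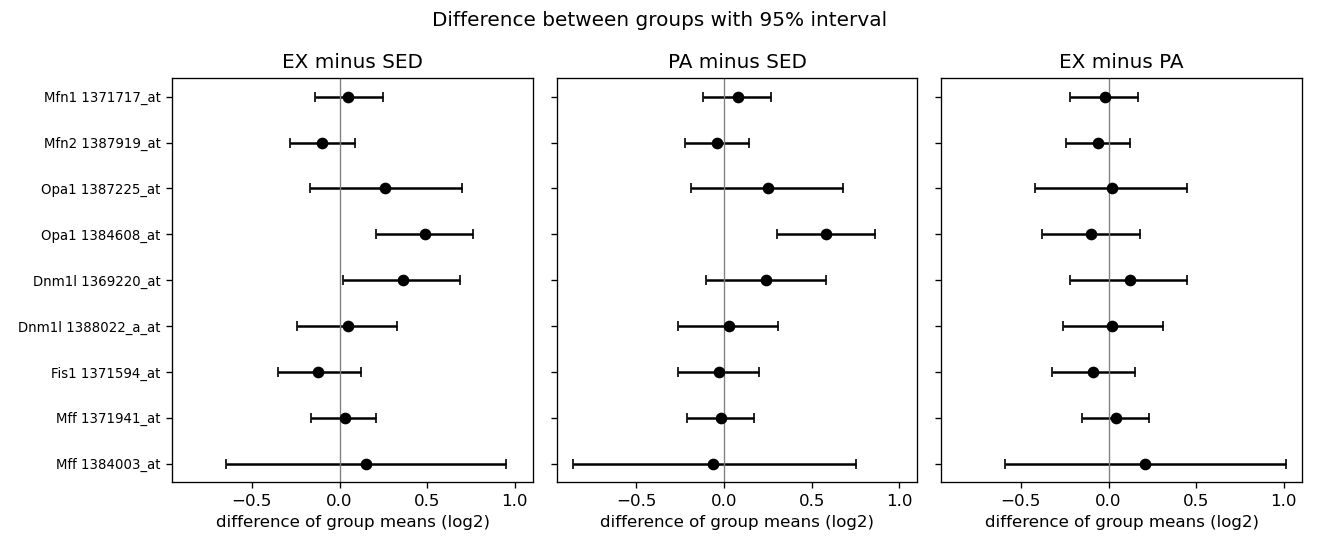
Difference of group means in log2 units (points) with 95% intervals from limma (bars) for the 9 probe sets in EX minus SED, PA minus SED and EX minus PA. The intervals of Opa1 1384608_at exclude 0 against SED in both panels, as does that of Dnm1l 1369220_at in EX minus SED, and every interval of EX minus PA includes 0.

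Ordered by group mean, Opa1 1384608_at stood highest in PA, then EX, then SED, with PA and EX not differing beyond their spread. Opa1 1387225_at and both Dnm1l probe sets ran EX, PA, SED, Mfn1 ran PA, EX, SED, and Mfn2 and Fis1 ran SED, PA, EX. For these the neighbours in the order did not differ beyond the spread of their arrays. Mff 1371941_at ran EX, SED, PA, with all 3 means within 0.04 of each other.

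Among themselves, the members showed 1 relation that passed adjustment over the 15 pairs. Mfn2 was low on the arrays where Dnm1l 1369220_at was high, with a Pearson r of -0.87 over the 12 arrays (permutation p = 0.0003, adjusted 0.0045) and a Spearman rho of -0.82 (permutation p = 0.0018, adjusted 0.027). With group means removed r was -0.84. Without SED 1 and EX 4, the arrays with the most extreme Mfn2, r was -0.70. Without SED 1 alone r was -0.80, and the p adjusted over the pairs was 0.0603.

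The second Dnm1l probe set, examined after the first relation had been seen, gave an r with Mfn2 of 0.00 over all arrays (permutation p = 0.991, Spearman rho -0.22 with permutation p = 0.494). Without SED 1 its r was -0.72 (permutation p = 0.014) and rho -0.59 (permutation p = 0.059), and -0.41 without EX 4 and PA 1 as well. Mfn2 and Dnm1l 1369220_at, like Mff 1371941_at above, also moved with the Gapdh 3' minus 5' difference of the arrays. For Mfn2 this r was 0.72 (permutation p = 0.00768, adjusted 0.0345) and rho 0.61 (permutation p = 0.0385, adjusted 0.139), and without the 2 arrays farthest in that difference r was 0.54. For Dnm1l 1369220_at r was -0.82 (permutation p = 0.00303, adjusted 0.0273) and rho -0.74 (permutation p = 0.00739, adjusted 0.0665), and r was -0.46 without those 2 arrays. The part of RNA integrity in the relation of the 2 genes was not tested.

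**Figure D4:**
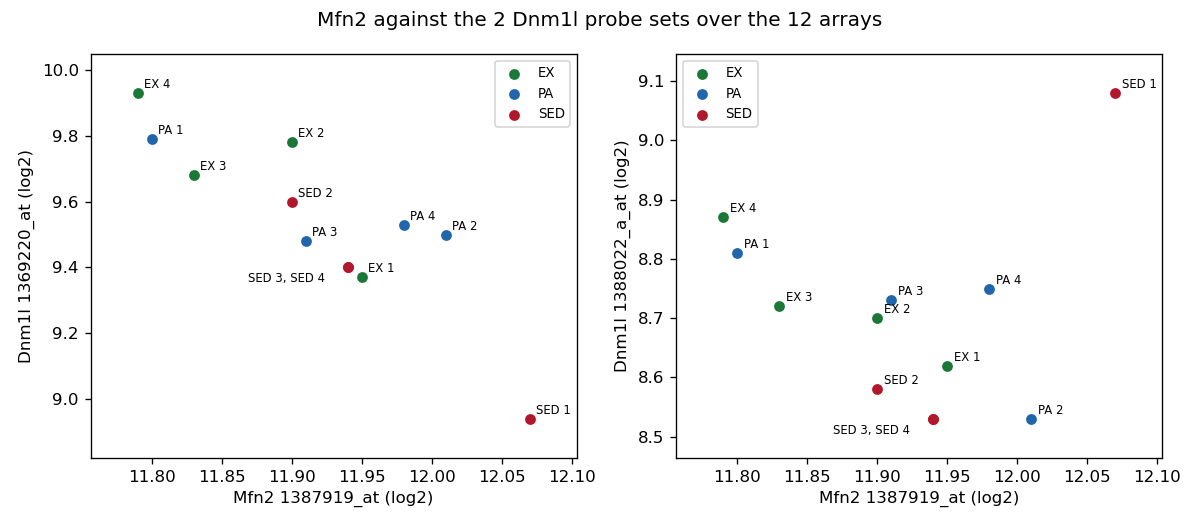
Log2 value of Mfn2 (horizontal axis) against each Dnm1l probe set (vertical axes) on the 12 arrays, coloured by group, with SED 3 and SED 4 at the same point. On 1369220_at the points fall with Mfn2 (r = -0.87), and on 1388022_a_at they do so except for SED 1, which lies at 12.07 and 9.08.

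Of the other 14 pairs, Mfn2 and Opa1 had an r of -0.66, Mfn1 and Mff -0.65, and Opa1 and Dnm1l 0.73, with adjusted permutation p of 0.0854 each, taking the probe set of each gene with the highest mean. Their Spearman rho was -0.53, -0.46 and 0.56, with adjusted permutation p of 0.29, 0.394 and 0.29. Without the 2 arrays farthest in the first gene of each pair, r was -0.39, -0.46 and 0.20. The Opa1 and Dnm1l relation rested on SED 1, with an r of 0.25 without it. Mfn1 and Mfn2, the paralogs, had an r of -0.49 (permutation p = 0.104, rho -0.40 with permutation p = 0.191), and -0.16 without SED 1 and -0.08 without the 2 farthest arrays. Fis1 had no r beyond 0.21 in size with any other member over all arrays.

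Genes outside the set that followed a member most closely over the 12 arrays were found among 10238 genes, so high coefficients are bound to occur and no p is given. Hspa4, a chaperone of the Hsp110 family, followed Opa1 1387225_at with an r of 0.96 (rho 0.86), and 0.79 without SED 1. Mettl23, a methyltransferase, had an r of 0.96 with it (rho 0.75), and 0.80 without SED 1. For Dnm1l 1369220_at the closest were Fap, a protease of activated fibroblasts, at 0.94 (rho 0.85), and the zinc finger gene Zbtb41 at 0.93 (rho 0.93), each 0.86 without SED 1.

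Mfn1 was followed by Ninj1, an adhesion protein that ruptures membranes of dying cells, at 0.93 (rho 0.88), and by Bnip3l, a receptor for the removal of mitochondria, at 0.91 (rho 0.86). Without SED 1 these were 0.87 and 0.83. Mfn2 was followed by Dpysl2, a protein of the cytoskeleton, at 0.91 (rho 0.84), and Chd4, a chromatin remodeller, at 0.90 (rho 0.81), both 0.87 without SED 1. Fis1 was followed by Jph2, which holds the sarcoplasmic reticulum at the T-tubules, at 0.91 (rho 0.97), and by Exoc3l4 at 0.89 (rho 0.86), with 0.92 and 0.89 without SED 1. For Mff the closest were Nsg1 at 0.86 (rho 0.78) and Entpd4, a nucleotide-cleaving enzyme of the Golgi, at 0.85 (rho 0.84).

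Other genes of mitochondrial shape and turnover were followed as lists. In each list 0 members passed an adjusted p of 0.05 by limma in any of the 3 comparisons. Regulators of fission had 15 measured genes. In EX against SED 9 had a higher mean (59.7% of all tested probe sets) and 6 a lower one. The median difference was 0.03, against 0.06 over all tested probe sets. In PA against SED 9 were higher (60.9% of all tested probe sets) and 6 lower, with a median of 0.01 against 0.06. At an unadjusted p under 0.05 there was 1 gene of the 15 in PA against SED, Inf2, where 15.2% of all tested probe sets passed. Inf2, an actin-assembling protein that acts where the endoplasmic reticulum meets mitochondria, averaged 9.26 ± 0.12 in PA and 9.57 ± 0.27 in SED (SD, n = 4 each), which differ by -0.31 ± 0.14 (SE, limma, adjusted p = 0.319). For EX against SED Inf2 differed by -0.27 ± 0.14 (limma, adjusted p = 0.376). Without SED 1 it differed by -0.21 in PA against SED (limma, adjusted p = 0.545) and by -0.17 in EX against SED (limma, adjusted p = 0.604).

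Fusion regulators and the inner-membrane proteases that cut Opa1 had 12 measured genes, 6 higher and 6 lower in EX than in SED (median 0.01) and 5 higher and 7 lower in PA than in SED (median -0.04). For this list and the next, 59.7% of all tested probe sets were higher in EX against SED and 60.9% in PA against SED. The median of all tested probe sets was 0.06 in each. Spg7, a subunit of an inner-membrane protease, averaged 7.40 ± 0.35 in PA and 6.85 ± 0.38 in SED, which differ by 0.55 ± 0.23 (SE, limma, adjusted p = 0.287). In PA against SED only 1 of the 12, Spg7, had an unadjusted p under 0.05 by limma, where 15.2% of all tested probe sets passed. Without SED 1 Spg7 differed by 0.48 (limma, adjusted p = 0.452). Oma1, a protease that cleaves Opa1 under stress, differed by 0.41 ± 0.30 (SE) in EX against SED (limma, adjusted p = 0.542) and was lowest in SED 1, as was Opa1, and without that array it differed by 0.10 (limma, adjusted p = 0.902). Genes that organise the cristae numbered 9, with 5 higher and 4 lower in EX against SED (median 0.01) and 6 higher and 3 lower in PA against SED (median 0.07). At an unadjusted p under 0.05 by limma, 1 of the 9 was higher and 1 lower in PA against SED, where 15.2% of all tested probe sets passed. The lower one, Chchd6, a subunit of the MICOS complex, averaged 5.25 ± 0.32 in PA and 5.81 ± 0.35 in SED, which differ by -0.56 ± 0.23 (SE, limma, adjusted p = 0.278), and by -0.40 without SED 1. The higher one, Apool, averaged 9.11 ± 0.12 in PA and 8.88 ± 0.11 in SED, which differ by 0.23 ± 0.10 (SE, limma, adjusted p = 0.301), and was lowest in SED 1.

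Mitochondrial transport had 6 measured genes, 4 higher and 2 lower in EX than in PA (median 0.06) and 4 higher and 2 lower in EX than in SED (median 0.04). Of all tested probe sets, 46.9% were higher in EX against PA (median -0.01) and 59.7% in EX against SED (median 0.06). Trak1, an adaptor that links mitochondria to motor proteins, averaged 10.96 ± 0.08 in EX and 10.74 ± 0.05 in PA (unadjusted p of 0.0269 by limma, adjusted p of 1), and Rhot2, the outer-membrane GTPase it binds, 7.65 ± 0.04 in EX and 7.48 ± 0.02 in PA (unadjusted p of 0.0669, adjusted p of 1). Armcx3, another outer-membrane protein of transport, averaged 10.13 ± 0.14 in EX and 10.43 ± 0.10 in PA (unadjusted p of 0.00787 by limma, adjusted p of 1). The EX and PA arrays did not overlap for these 3 genes, as for 2.78% of all tested probe sets. They were named for having the smallest p of the 6 in this comparison, so that share is no measure for them. Trak1 and Rhot2 were higher in EX and Armcx3 was lower. At an unadjusted p under 0.05 by limma, 1 of the 6 was higher and 1 lower, where 2.87% of all tested probe sets passed. In EX against SED, Trak1 differed by 0.22 ± 0.09 (SE) and Rhot2 by 0.21 ± 0.09, with adjusted p of 0.268 and 0.276 by limma, and both were lowest in SED 1. Without that array the differences were 0.17 for Trak1 and 0.15 for Rhot2. Kif5b, a motor protein, averaged 11.99 ± 0.05 in EX and 12.18 ± 0.13 in SED (SD, n = 4 each), which differ by -0.19 (limma, adjusted p = 0.339). Its EX and SED arrays did not overlap, as for 7.89% of all tested probe sets. The difference was -0.15 without SED 1 and ran from -0.23 to -0.08 over all settings (limma, adjusted p 0.246 to 0.704).

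Mitophagy genes, which mark mitochondria for removal, had 4 of 11 higher and 7 lower in EX against SED (median -0.04) and 6 higher and 5 lower in PA against SED (median 0.07), with 0 of 11 at an unadjusted p under 0.05 by limma in EX against SED, PA against SED and EX against PA, where 15.6%, 15.2% and 2.87% of all tested probe sets passed. Genes that stand for mitochondrial content, such as enzymes of the citric acid cycle, respiratory chain subunits and import receptors, had 14 of 23 higher and 8 lower in EX against SED (median 0.03), 18 higher and 5 lower in PA against SED (median 0.10), and 3 higher and 20 lower in EX against PA (median -0.07). Of all tested probe sets, 59.7% were higher in EX against SED and 60.9% in PA against SED, with a median of 0.06 in each. In EX against PA 46.9% were higher and 52.3% lower (median -0.01). The mean of this list was lowest in SED 1, at -0.13 relative to all arrays. Sdha, a subunit of complex II, averaged 11.89 ± 0.04 in PA and 11.67 ± 0.22 in SED, which differ by 0.23 ± 0.10 (SE, limma, adjusted p = 0.332). Sdha was lowest in SED 1, and without that array it differed by 0.12 (limma, adjusted p = 0.537). Timm44, an import motor subunit, differed by -0.30 ± 0.09 (SE) in EX against SED (limma, adjusted p = 0.161).

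Regulators of mitochondrial genes had 9 of 11 members higher and 2 lower in each of EX against SED and PA against SED, with medians of 0.17 in both. Of all tested probe sets 59.7% and 60.9% were higher in these comparisons, with a median of 0.06 in each. Gabpa, a subunit of a transcription factor, averaged 9.02 ± 0.07 in EX and 8.68 ± 0.17 in SED, which differ by 0.34 ± 0.13 (SE, limma, adjusted p = 0.234). Gabpa was lowest in SED 1, and without that array it differed by 0.30 in EX against SED (limma, adjusted p = 0.349). Over all settings this difference was 0.24 to 0.42 (limma, adjusted p 0.164 to 0.526). Tfam, the mitochondrial transcription factor, averaged 8.15 ± 0.13 in PA and 7.90 ± 0.10 in SED, which differ by 0.25 ± 0.09 (SE, limma, adjusted p = 0.259). Esrrg, an estrogen-related receptor, averaged 11.42 ± 0.04 in EX, 11.42 ± 0.03 in PA and 11.26 ± 0.11 in SED, with adjusted p of 0.367 in EX against SED and 0.347 in PA against SED by limma. Esrrg was lowest in SED 1, and without that array it differed by 0.12 in EX against SED and by 0.13 in PA against SED. Pprc1, a coactivator, averaged 7.85 ± 0.16 in EX and 7.46 ± 0.21 in PA (limma, adjusted p = 1). The list mean, relative to all arrays, was 0.04 to 0.13 in EX, -0.05 to 0.10 in PA and -0.18 to -0.01 in SED.

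Markers of other cells were compared by array. Relative to the mean of all arrays, the 7 heart muscle markers ranged from -0.01 to 0.01 in EX, -0.02 to 0.03 in PA and -0.06 to 0.07 in SED. The 6 fibroblast markers ranged from -0.11 to 0.12 in EX, -0.10 to 0.12 in PA and -0.21 to 0.11 in SED. Leukocyte markers, 9 in number, ranged from -0.22 to -0.06 in EX, -0.12 to 0.18 in PA and -0.33 to 0.71 in SED. The highest SED value was that of SED 3, and SED 1, SED 2 and SED 4 were at -0.33, 0.08 and -0.02. Of these 9, 1 was higher and 8 were lower in EX than in SED, where 39.8% of all tested probe sets were lower. At an unadjusted p under 0.05 by limma there were 3, against 15.6% of all tested probe sets. The part of SED 3 in these counts was not tested.

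The widest ranges were those of atrial and blood cell genes. The 5 atrial markers ranged from -0.83 to 1.04 in EX, -0.24 to 0.14 in PA and -0.27 to 0.27 in SED. The 5 blood cell markers ranged from -0.54 to 0.20 in EX, -0.25 to 0.36 in PA and -1.08 to 1.19 in SED, where SED 1 was lowest and SED 3 highest. The 5 endothelial markers ranged from -0.14 to 0.12 in EX, -0.08 to 0.01 in PA and -0.05 to 0.25 in SED, highest in SED 1. Smooth muscle and pericyte markers, 4 in number, ranged from -0.11 to 0.18 in EX, -0.14 to -0.01 in PA and -0.12 to 0.11 in SED. For 3 adipocyte markers the range was -0.16 to 0.10 in EX, -0.14 to 0.12 in PA and -0.16 to 0.38 in SED, and for 2 skeletal muscle markers -0.08 to 0.20 in EX, -0.08 to -0.04 in PA and -0.07 to 0.10 in SED. The part of cell makeup in the Opa1 values was not tested.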

How the data were processed

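The authors' deposited table holds log2 values, to 2 decimals, of 31099 rows on 12 arrays. MAS5 and RMA stand in the submitters' processing notes with no role given, so the background correction and scaling are not known. Arrays were assigned to EX, PA and SED from their titles. After removal of 57 control rows, the 18626 probe sets with a mean of at least 4.94 (the brightest 60%) were tested. Differences come from limma 3.58.1 in R 4.3.3, fitted to all 12 arrays with 3 group means, with moderated two-sided tests and Benjamini-Hochberg adjustment at 0.05 over everything tested. Correlations used 100000 permutations that moved values freely between the groups. Their p therefore does not separate a relation within groups from a difference between groups. Genes were named from probe sets with 1 symbol, list genes by their brightest tested probe set. The text names all member probe sets, the 2 genes closest to each member, and up to 3 genes of a list by smallest p in a comparison. Members and lists were chosen with earlier results of these data known. The steps were tested on simulated data. Same-numbered arrays had residual correlations of -0.21 to 0.13, over 0.1 in 4 of 12 pairs. Arrays of different numbers were not compared, so this cannot settle whether the numbers pair them. The main fit used no pairing. The number of arrays limits the precision.

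Alternatives covered normalization, filters, an offset, variance models, array weights, fits of the compared groups, a replicate block, averaged probe sets, the threshold and left-out arrays. The second Dnm1l probe set in the relation with Mfn2 was added after seeing the data.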

Additional observations from a re-analysis of the deposited data

Results flagged for a closer look

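In 3 of the 27 sets of 4 arrays examined (9 probe sets in 3 groups), 1 array lay far from the other 3, and chance alone does this in about 1 in 20 sets. Dnm1l 1388022_a_at read 9.08 in SED 1 against 8.53 to 8.58 on the other SED arrays. Dnm1l 1369220_at read 9.79 in PA 1 against 9.48 to 9.53 on the other PA arrays. Mff 1371941_at read 10.9 in EX 2 against 10.82 to 10.83 on the other EX arrays.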

How the results depend on the processing

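The count of members past the adjusted threshold stayed at 0 in all 95 combinations of a comparison and an alternative, and that of list genes stayed at 0 too. The exact permutation test, whose p is not adjusted over the array, gave 0.0286 for Opa1 1384608_at in EX against SED (0.49) and in PA against SED (0.58). Over the whole array limma called 0 probe sets in EX against SED, but 8 with array weights, 4 at a threshold of 0.1, 2 with probe sets averaged, 2 without SED 1, 2 without SED 1 and SED 3 and 1 without EX 2. In PA against SED and in EX against PA it called 0, and 1 in each with array weights. With the replicate block the count of members past the threshold was 0 in each comparison, and Opa1 1384608_at had an adjusted limma p of 0.213 in EX against SED and 0.229 in PA against SED. Over all settings that probe set differed by 0.36 to 0.56 in EX against SED (adjusted p 0.0969 to 0.323) and by 0.44 to 0.65 in PA against SED (adjusted p 0.0882 to 0.372).

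Some differences changed sign, and not only those near 0. Without SED 1 and SED 3, Opa1 1387225_at was at -0.06 in EX against SED and -0.08 in PA against SED, where all arrays gave 0.26 and 0.25, and in PA against SED Mfn2 was at 0.01 and Mff 1384003_at at 0.02, while Miga1, a fusion regulator, was at -0.03 in EX against SED, where all arrays gave 0.22. With probe sets averaged, Opa1 was at -0.04 in EX against PA. With quantile normalization, Dnm1l 1388022_a_at was at -0.04 in EX against SED and -0.07 in PA against SED. Leaving out 1 array at a time gave -0.05 to 0.07 for Opa1 1387225_at in EX against PA. For Dnm1l 1388022_a_at it gave -0.03 to 0.16 in PA against SED and -0.04 to 0.06 in EX against PA. For PA against SED it gave -0.11 to 0.02 for Fis1, -0.06 to 0.03 for Mff 1371941_at and -0.17 to 0.14 for Mff 1384003_at, and for EX against SED -0.02 to 0.07 for Mff 1371941_at. The count of member pairs that passed as correlated was 1 with all arrays, 1 with group means removed and 0 without SED 1. With the other Dnm1l probe set the r with Mfn2 was 0 over all arrays. The cause of these changes was not tested. The exact permutation test has no adjusted p over all probe sets and gives no count.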
